A study of Mus musculus with 49 samples.

Results

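The genes described here encode the proteins of the cytosolic ribosome, followed in mouse liver after a toxic dose of acetaminophen. Members were chosen by name alone, as probe sets that the platform annotation assigns to a single symbol of the form Rpl or Rps with a number, together with Rplp0, Rplp2 and Rpsa and without the Rps6k kinases and pseudogenes. On the 25 arrays with a value for every probe set, 106 of 34958 single-symbol probe sets met the rule, and they stand for 50 of 18194 genes. Of the members, 22 encode proteins of the large subunit and 21 proteins of the small subunit. Another 6 encode paralogs of subunit proteins (Rpl3l, Rpl7l1, Rpl22l1, Rpl39l, Rps4l and Rps27l), and Rps19bp1 encodes a protein that binds Rps19 and is no subunit. On all 49 arrays, 36 probe sets and 32 of 5976 genes could be followed. A further 110 probe sets list a ribosomal protein gene beside other symbols and are not members.

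Livers of male C57BL6/N mice were taken after 1 intraperitoneal dose of acetaminophen (APAP) of 300 mg/kg, on the first day at 1 h, 6 h, 12 h and 1 d and later at 2 d, 4 d, 6 d, 8 d and 16 d, and from a control group. Food was withheld overnight before the drug and returned afterwards in all dosed groups. The time since food was returned therefore rises with the time after the dose, and these cannot be told apart in comparisons with 1 h. Whether control mice fasted or received the carrier, and the age of the mice, are not given in the sources used here. The 16 d group appears in the labels and not in the series' design text. Each group holds 5 arrays except 6 h, with 4, and since the arrays are not said to come from separate mice, p-values describe the spread between arrays, which may be technical. Values of all 45101 probe sets were on hand for 1 h, 12 h, 1 d, 2 d and 16 d, so that these were compared with 1 h; the other groups held the first 8137 probe sets, over which every time was compared with control.

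A ribosome joins a small subunit, which reads the mRNA, to a large subunit, which forms the peptide bond, and each subunit is a shell of proteins on ribosomal RNA. Ribosomal protein mRNAs are among the most abundant of hepatocytes, and in vertebrates most begin with a cytosine followed by a run of pyrimidines, the 5′ terminal oligopyrimidine (5′TOP) motif, through which mTORC1 controls their translation. Some of the proteins also act off the ribosome: free Rpl11, with Rpl5 and 5S ribosomal RNA, binds the p53 ligase Mdm2.

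The start-site windows below show this feature for the members on which the results turn. They are the 3 genes with the largest differences among the bright probe sets (Rpl22l1, Rpsa and Rpl35), stalk proteins (Rplp0, Rplp2), Rpl38 and Rps6 as examples from either subunit, and Rps27l, a bright member that was not called at 1 d. The sequences are from RefSeq on GRCm38.p6 and run 5′ to 3′ on the gene's strand, from 30 bases before to 30 bases after the annotated start. Capitals mark the pyrimidine run, defined as C followed by C or T, at least 6 bases long, opening within 10 bases of the start. A run that began farther upstream was counted from its first C within these 10 bases, also in the counts below. This applies to Rps27l, where the letters ct directly precede the capitals and belong to the same stretch of pyrimidines.
Rpl22l1: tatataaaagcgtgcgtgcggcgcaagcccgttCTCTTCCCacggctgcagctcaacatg
Rpsa: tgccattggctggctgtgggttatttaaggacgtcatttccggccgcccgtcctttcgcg
Rpl35: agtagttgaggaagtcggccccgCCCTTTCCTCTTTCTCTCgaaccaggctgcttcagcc
Rplp0: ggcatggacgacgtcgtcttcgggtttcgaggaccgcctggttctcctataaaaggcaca
Rplp2: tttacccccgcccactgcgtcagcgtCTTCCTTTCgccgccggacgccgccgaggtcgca
Rpl38: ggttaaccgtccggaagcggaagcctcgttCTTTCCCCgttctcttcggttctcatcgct
Rps6: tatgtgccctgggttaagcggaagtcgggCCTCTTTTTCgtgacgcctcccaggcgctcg
Rps27l: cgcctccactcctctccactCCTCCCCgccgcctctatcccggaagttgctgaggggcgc
The Rpl22l1 window is chr3:28805478-28805537 (plus strand), that of Rpsa chr9:120127736-120127795 (plus strand), that of Rpl35 chr2:39005102-39005161 (minus strand) and that of Rplp0 chr5:115559437-115559496 (plus strand). Those of Rplp2, Rpl38, Rps6 and Rps27l are chr7:141447621-141447680 (plus strand), chr11:114668550-114668609 (plus strand), chr4:86857338-86857397 (minus strand) and chr9:66946056-66946115 (plus strand). For Rps27l the first of its listed starts is shown. The windows of Rpsa and Rplp0 hold no run by this definition, and those of Rpl38 and Rps6 open a run at or next to the annotated start. Farther downstream the Rpsa window holds the letters cctttc, and that of Rplp0 holds tataaa after its annotated start. The definition depends on the annotated starts, which may differ from those used in liver.

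Promoter sequence, from 250 bases before to 50 bases after a start, was listed for 44 of the 50 members. A pyrimidine run was found at a start of 24 members, or 54.5%, against 21.9% of the 27025 genes with such a sequence. The letters CCGGAAG, the core of the sites bound by ETS factors such as GABP, were found on either strand in 21 members (47.7%), against 9.93% of all genes. AAGATGG, the core of YY1 sites, was found in 8 members (18.2%) and in 7.28% of all genes. The Myc and Max E-box CACGTG was present in 4 members (9.09%) and 8.09% of all genes, and TATAAA in 6 (13.6%) and 15.7%. A gene counted when any of its listed starts held the letters, both strands were searched except for the pyrimidine run, CCGGAAG overlapped neither AAGATGG nor a pyrimidine run in any member, and a match describes letters and not a bound site. Members with and without a pyrimidine run by this definition had like differences in expression between 1 h and 1 d. Medians were 0.41 over the 24 with a run, of which 17 were called higher, and 0.41 over the 20 without, of which 14 were. This was not tested, and neither was whether the listed starts are those used in liver.

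All values are log2 expression, so that a difference of 1 is a doubling; levels are given per probe set and are not compared between genes. Markers of hepatocytes, the main cells of the labelled tissue, summed to a high level of between 16.75 and 16.87 on all 25 arrays. The sum was taken on the linear scale and weighs its brightest genes most, so it does not measure whether the share of hepatocytes changed. The arrays of 1 h replicate 3 and 16 d replicate 4 had a narrower spread of values (SD 2.02 on both) than the others (2.16 to 2.27), and control replicate 3 stood apart in the same way; without the 3 narrow arrays, 22 members were called at 12 h, 36 at 1 d and 34 at 2 d against 1 h, and 35 at 2 d against 16 d, counts that are described with all arrays below. In bulk liver, fewer cells of a type and less RNA per cell cannot be told apart.

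The median level of the members was higher at 1 d and 2 d than at 1 h, and overlapped with 1 h at 16 d. The median level of the 50 genes was 11.70, 11.69, 11.60, 11.72 and 11.82 on the 1 h arrays. At 1 d it lay between 12.05 and 12.23 and at 2 d between 12.07 and 12.14, so that every array of these times was above every 1 h array. At 12 h it lay between 11.73 and 11.91, overlapping with 1 h, and at 16 d between 11.53 and 11.78. Over the 32 genes measured in all groups, the control arrays gave medians of 11.43 to 11.69, and the arrays of 1 h, 6 h, 4 d, 6 d, 8 d and 16 d overlapped with them, while all arrays of 1 d and 2 d lay above.

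**Figure D1:**
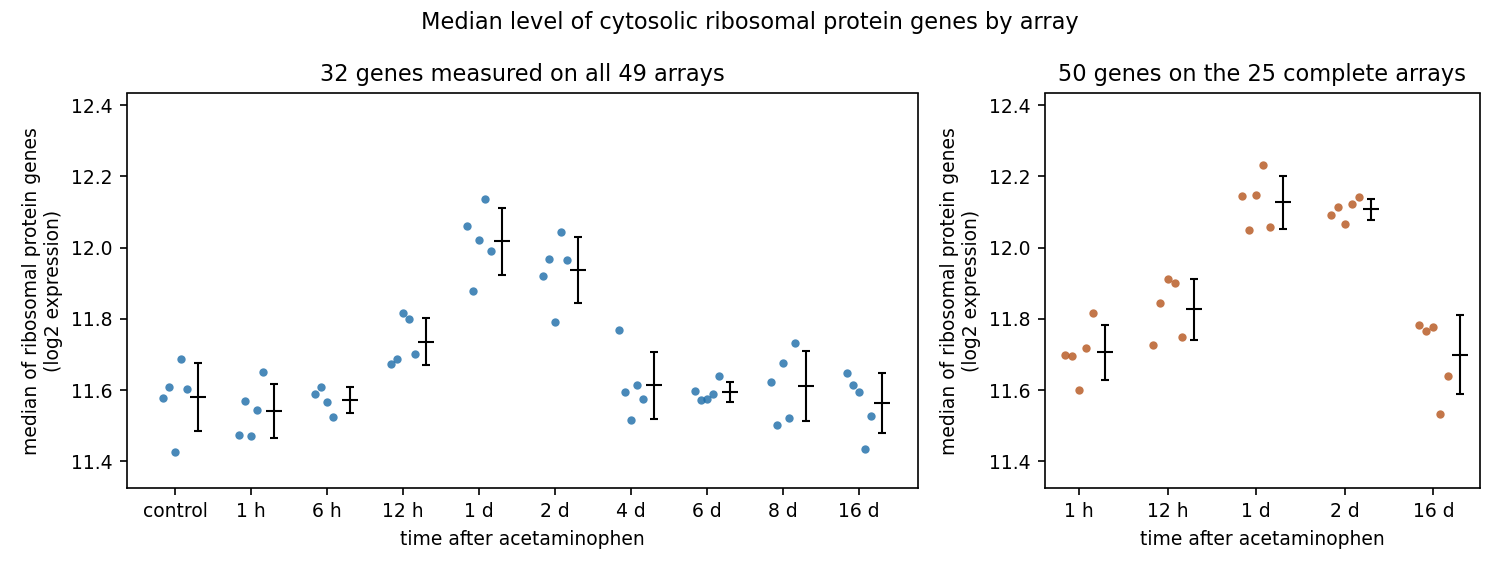
Median log2 level of the ribosomal protein genes on each array (points) against time after acetaminophen, with the group mean and SD (bars), for the 32 genes measured on all 49 arrays (left) and the 50 genes on the 25 complete arrays (right). All points of 1 d and 2 d lie above all points of control and 1 h.

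At 1 d, 36 of the 50 members were higher than at 1 h and none was lower in limma's fit over all genes at an adjusted p under 0.05, where 11.6% of all genes were higher and 11.7% lower. The arrays of the same number of members, 36, all lay above those of 1 h, against 9.05% of all genes. The median difference of the members was 0.42, or 1.33-fold, and 50% of them lay between 0.30 and 0.50, while the median of all 18194 genes was -0.07. The rise was small for each gene and of similar size in most. Of 410 other genes with a mean level of at least 11, 82 were higher and 181 lower, with a median of -0.19. Beside this rise, the 3′ minus 5′ signal of actin, a measure of RNA integrity, was 0.52 to 0.73 at 1 h, 0.32 to 0.42 at 12 h, 0.37 to 0.48 at 1 d, 0.26 to 0.48 at 2 d and 0.39 to 0.65 at 16 d, so that 1 h lay above 12 h, 1 d and 2 d. The array of 12 h replicate 4 stood apart in other signs of RNA quality, with a Gapdh 3′ minus 5′ signal of 0.33 against at most 0.044 on the other arrays and an 18S signal of 9.10 against at least 10.83. Without it, 17 members rather than 23 were higher at 12 h than at 1 h. Leaving out 12 h replicate 3, whose Gapdh and 18S signals of -0.13 and 11.53 did not stand apart, also gave 17. The part of RNA integrity in the results was not tested.

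**Figure D2:**
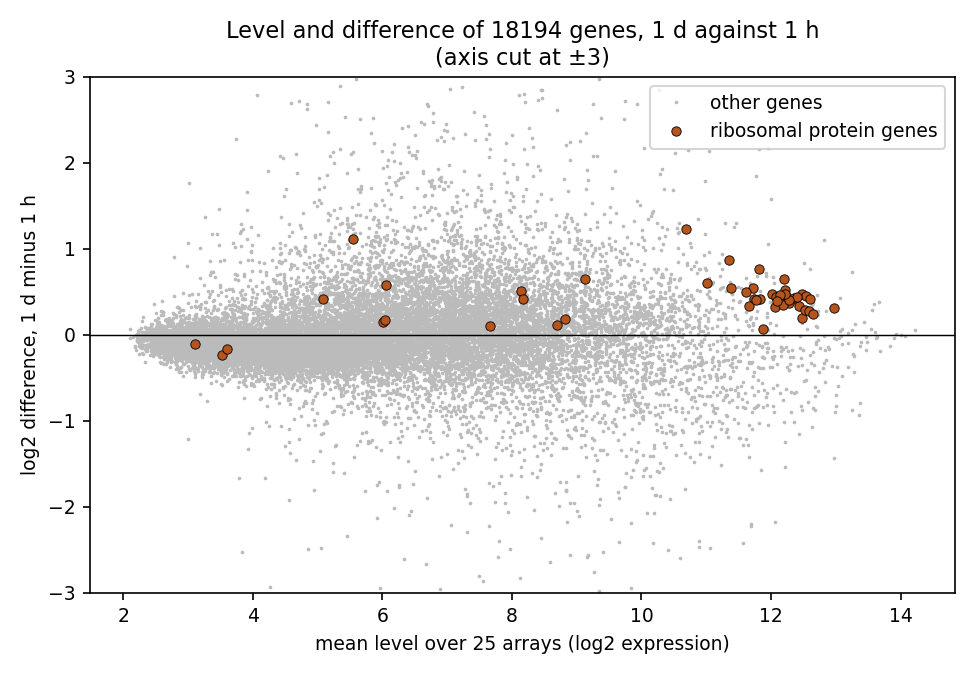
Log2 difference between 1 d and 1 h against the mean log2 level over the 25 arrays for 18194 genes, with the 50 ribosomal protein genes in colour; the vertical axis stops at 3 in both directions. Most members form a tight group at levels above 11 with differences around 0.42, while other bright genes spread to both sides of 0.

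Of the 22 large subunit genes, 18 rose by 1 d, with a median difference of 0.44. Rpl35, which sits at the mouth of the tunnel through which new chains leave the ribosome, had the largest difference among its bright members. Its levels were 11.41, 11.48, 11.30, 11.31 and 11.58 at 1 h and 12.21, 12.10, 12.29, 12.21 and 12.09 at 1 d. The groups did not overlap, and the difference was 0.76 ± 0.086 (limma, adjusted p = 6.11e-07, n = 5 and 5). Rpl41, the smallest ribosomal protein, rose by 0.65 ± 0.11 (limma, adjusted p = 0.000103); with only probe sets not marked for cross-hybridisation the difference was 0.22 and not called. Rplp0, the stalk protein that recruits elongation factors and is often used as a reference gene in RT-PCR, had levels of 12.06, 12.03, 12.12, 12.10 and 12.18 at 1 h and 12.48, 12.42, 12.42, 12.54 and 12.46 at 1 d. Every 1 d array was again above every 1 h array, with a difference of 0.37 ± 0.064 (limma, adjusted p = 0.000139). Rplp2, its partner in the stalk, rose by 0.44, Rpl4 and Rpl7, structural proteins of the large subunit, by 0.43 and 0.42, Rpl11 by 0.47 and Rpl13a, which also silences inflammatory mRNAs after interferon in human cells, by 0.48. The 4 large subunit genes that missed the threshold were Rpl14, Rpl27a, Rpl37a and Rpl39, with differences of 0.41, 0.11, 0.19 and 0.16.

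Of the 21 small subunit genes, 17 rose, with a median difference of 0.41. Rpsa, which is also known as the laminin receptor precursor, had the largest difference by its bright probe set. Its start-site window above holds no pyrimidine run that opens within 10 bases of the annotated start. Its levels were 10.94, 11.12, 10.66, 10.82 and 10.84 at 1 h and 11.81, 11.59, 11.64, 12.01 and 11.68 at 1 d. No 1 d array fell within the range of 1 h, and the difference was 0.87 ± 0.093 (limma, adjusted p = 3.23e-07). Its other probe set had a level near 2.9 in both groups, and the mean of both rose by 0.42, still called. Rps19 and Rps24, whose human orthologs are mutated in Diamond-Blackfan anaemia, rose by 0.61 and 0.53. Rps3, which lines the entry of the mRNA channel, rose by 0.41, and the core proteins Rps4x and Rps7 by 0.47 and 0.46. As the mean of all probe sets of the gene, dim ones included, Rps3 differed by 0.13 and Rps4x by 0.25, and both calls were lost. Rps6, the substrate of the S6 kinases downstream of mTORC1, had levels of 7.98, 8.20, 7.42, 8.09 and 8.13 at 1 h and 8.59, 8.06, 8.27, 8.49 and 8.48 at 1 d. These groups overlapped, 1 h replicate 3 being the lowest, and the difference of 0.41 ± 0.15 missed the threshold (limma, adjusted p = 0.054), though it passed in 7 of 21 other settings, among them leaving out 1 h replicate 2 or 5 or 1 d replicate 2. Rps16, Rps25 and Rps27 were the other small subunit genes without a call.

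**Figure D3:**
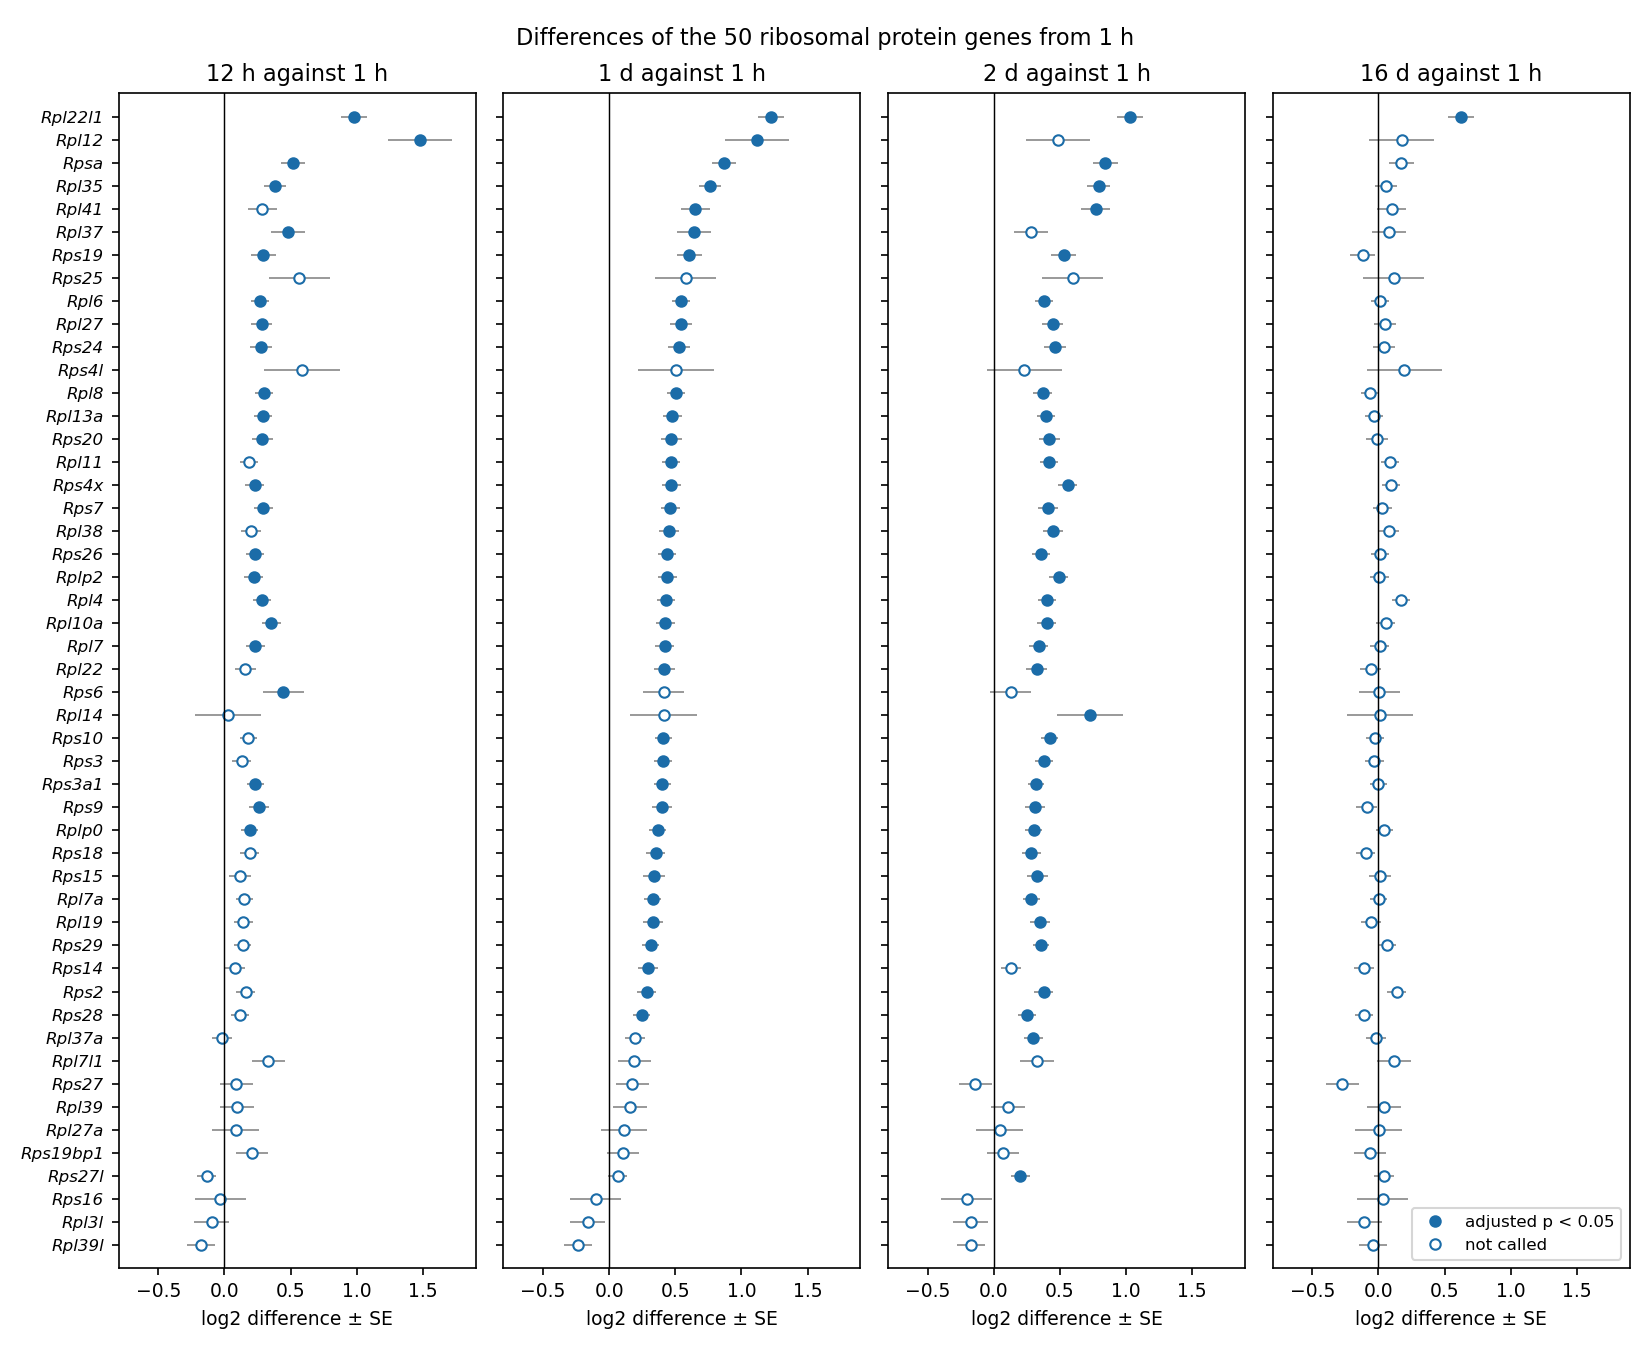
Log2 difference from 1 h ± SE for each of the 50 ribosomal protein genes at 12 h, 1 d, 2 d and 16 d, ordered by the difference at 1 d; filled points have an adjusted p under 0.05. Filled points fill most of the 1 d and 2 d panels, 23 points are filled at 12 h, and only Rpl22l1 is filled at 16 d.

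Whether a member was called went with the brightness of its probe set. Of the 36 members with a mean level of at least 10, 34 rose by 1 d, the exceptions being Rpl37a and Rps27l. Of the 8 members under 7 (Rpl12, Rpl14, Rpl39, Rpl3l, Rpl39l, Rps16, Rps25 and Rps27), 1 rose. That gene was Rpl12, a protein at the base of the stalk, whose levels were 4.71, 4.70, 4.63, 5.25 and 5.19 at 1 h, 5.79, 6.67, 6.37, 6.61 and 6.44 at 12 h and 6.05, 5.42, 5.79, 6.77 and 6.05 at 1 d. All arrays of 12 h and 1 d were above all of 1 h, with differences of 1.48 ± 0.24 and 1.12 ± 0.24 (limma, adjusted p = 0.000134 and 0.00148). It has a single probe set here, at a level near that of genes with little signal.

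Probe sets that do not stand for their gene mostly moved the same way. Of all genes, 11.6% were higher and 11.7% lower at 1 d than at 1 h. The shares over all probe sets are not given here. Counted singly, 68 of the 106 member probe sets were higher and 1 was lower at 1 d than at 1 h, and the 110 probe sets that list several symbols gave 87 higher and 0 lower, with a median of 0.44. The exception was a dimmer probe set of Rpl22, at 8.12 at 1 h and 6.89 at 1 d, which fell by 1.23 on the log2 scale with an SE of 0.22 (limma, adjusted p = 0.000241). The brightest probe set of Rpl22, which stands for the gene, rose by 0.42 ± 0.08 in the same comparison, so the probe sets of Rpl22 disagree; averaged, they gave -0.12. At 2 d the same dimmer Rpl22 probe set and dim ones of Rps18 and Rps20 were lower than at 1 h, while the bright ones were higher.

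At 12 h the rise was under way: 23 of 50 members were higher than at 1 h and 0 lower, where 8.29% of all genes were higher and 10.3% lower. The median difference was 0.23 (1.17-fold), against -0.08 for all genes. Among the called members, Rpsa came after Rpl12 and Rpl22l1 in size, with levels of 11.27, 11.38, 11.36, 11.56 and 11.40 on the 12 h arrays. All of these lay above the 1 h arrays, and the difference was 0.52 ± 0.093 (limma, adjusted p = 0.000336). Rplp0 was higher by 0.19 and Rps6 by 0.45, both called. Neither call held in all 21 other settings: that of Rplp0 was lost in 8, among them leaving out 1 h replicate 1, 2 or 4 or 12 h replicate 1, 3, 4 or 5, and that of Rps6 in 10, among them leaving out 1 h replicate 1, 3 or 4 or 12 h replicate 1, 4 or 5. Between 12 h and 1 d the median of the members moved by a further 0.18, and the arrays of 24 members at 1 d lay wholly above those at 12 h, against 2.1% of all genes. Of the 50, 4 passed the test, where 1.02% of all genes were higher: Rpl35 (0.38), Rpl11 (0.28), Rps3 (0.28) and Rpl6 (0.27). That count fell to 0 without 12 h replicate 1 or 5 or 1 d replicate 3 or 4, to 1 without 12 h replicate 2 and to 2 without 1 d replicate 1, and it was 11 without the 3 narrow arrays. It was also 22 after quantile normalization and 0 with each array centred on its median, and a fit on the 2 groups alone gave 10 calls at 12 h against 1 h and 0 between 12 h and 1 d. Quantile normalization gave 35 calls at 12 h against 1 h. The shares of all genes called under these other settings are not given here.

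From 1 d to 2 d the members showed little change. Between 1 d and 2 d no member passed limma's test in either direction, where 6.39% of all genes were higher and 2.09% lower. The median difference of the members was -0.05. At an unadjusted p under 0.05 there were 5 members, all lower at 2 d (Rpl12, Rpl37, Rpl6, Rps14 and Rps27). The shares above are for adjusted p. That of all genes at the unadjusted threshold is not given here, so these 5 are not read as a result. Quantile normalization gave 4 members lower, centring on the array median 5 lower, and array weights, leaving out the narrow arrays or leaving out 2 d replicate 5 gave 1 lower. Against 1 h, 36 members were higher at 2 d and 0 lower, where 14.8% of all genes were higher and 13.3% lower, with a median of 0.36 (1.28-fold). Rpl35 had levels of 12.15, 12.36, 12.12, 12.24 and 12.17 at 2 d, all above the 1 h arrays, and a difference of 0.79 ± 0.086 (limma, adjusted p = 2.14e-07). Rpsa was higher by 0.84, Rpl41 by 0.77 and Rps4x by 0.56. As the mean of their probe sets, Rpsa was higher by 0.49, still called, and Rps4x by 0.19, no longer called, and Rpl41 was at -0.08 by its 1 unmarked, dim probe set. Some members had values at 2 d that were nearer to 1 h. Rps14 differed from 1 h by 0.13 ± 0.076 and Rpl37 by 0.28 ± 0.13, neither of them called at 2 d though both were at 1 d. The dim Rpl12 was also called at 1 d and not at 2 d. Its group means were 4.90 at 1 h, 6.01 at 1 d and 5.38 at 2 d. For none of these genes was the change between 1 d and 2 d called.

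At 16 d a single member, Rpl22l1, differed from 1 h, where 1.46% of all genes were higher and 1.32% lower; the median of the members was 0.01. Against 16 d, 36 members were higher at 2 d and 0 lower, where 12.7% of all genes were higher and 8.54% lower, with a median of 0.35 (1.27-fold). Rpl35 at 16 d had levels of 11.56, 11.54, 11.64, 11.35 and 11.28, all under the 2 d arrays and overlapping with 1 h. Its difference between 2 d and 16 d was 0.74 ± 0.086 (limma, adjusted p = 8.39e-07). Rpsa and Rpl41 differed by 0.67 and 0.67 between these times. The value of Rpsa was 0.39 as the mean of its probe sets, still called, and that of Rpl41 0.33 by its unmarked probe set, not called.

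Against the control arrays, 32 members could be followed at every time. Among them Rpsa, Rpl27a, Rpl39l, Rps20, Rpl14, Rps18 and Rpl39 were represented by dim probe sets, with control means between 3.06 and 5.95. The bright probe set of Rpsa lies outside those shared by all arrays. By its dim one, Rpsa was called at no time against control. At 1 h no member was called, where 0.335% of all genes were higher and 0.301% lower, and the median was -0.03. At an unadjusted p under 0.05 there was 1, Rps7, lower at 1 h, again without a share of all genes at that threshold to set beside it. At 6 h 1 member, Rpl22l1, was higher (3.78% of all genes higher, 1.89% lower), and at 12 h 10 were higher and 0 lower (11.5% of all genes higher, 12.2% lower). The 12 h count was 4 without control replicate 3, 5 without 12 h replicate 3 and 6 without 12 h replicate 4, 5 without the narrow arrays, 1 in a fit on the 2 groups alone, 5 with array weights and 3 after centring. Among those called besides Rpl22l1 were Rpl35, at 0.29 ± 0.084, Rpl8, a protein of the core of the large subunit, at 0.26 ± 0.075, and Rplp0, at 0.25 ± 0.071 (limma, adjusted p = 0.00872, 0.00759 and 0.00726). All of these calls were lost in the fit on the 2 groups alone, and that of Rpl35 also without control replicate 3.

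At 1 d, 23 members were higher than control and 1 lower, where 16.2% of all genes were higher and 13.4% lower, and the median was 0.33 (1.26-fold) against -0.03 for all genes. Rplp0 had control levels of 12.05, 11.83, 11.96, 12.21 and 12.13 and 1 d levels as given above. All 1 d arrays were higher than all controls, and the difference was 0.43 ± 0.071 (limma, adjusted p = 6.09e-06). Rpl35 rose by 0.62 and Rpl13a by 0.57. At 2 d, 25 members were higher than control and 2 lower, where 19.9% of all genes were higher and 12.7% lower, with a median of 0.32. Rpl41 and Rpl35 were higher by 0.66 and 0.61 with no overlap, and Rpl14, a large subunit protein at a dim probe set, by 0.66 ± 0.23 (limma, adjusted p = 0.0223) with overlap between the groups. The members lower than control were Rps20 at 1 d and 2 d and Rps18 at 2 d, with Rps20 at -1.02 ± 0.2 at 2 d; the Rps18 call was lost without control replicate 3 or 4 or 2 d replicate 1 or 4. On all arrays these symbols are represented by probe sets with levels under 6, their bright probe sets being outside the shared 8137, and on the 25 complete arrays the bright sets of both genes were higher at 2 d than at 1 h, by 0.42 and 0.28. The 2 d result against control depends on scaling: with each array centred on its median, which lowers the 2 d differences from control by 0.26, 6 members were higher and 5 lower with a median of 0.06. The median of all genes then stood at -0.29. A fit on the 2 groups alone gave 17 calls.

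At 4 d the array medians of the members overlapped with control. Rpl22l1 was higher than control and 3 members were lower, where 9.99% of all genes were higher and 6.54% lower, and the median of the 32 was -0.05. Centring on the array median gave 1 higher and 6 lower with a median of -0.15, array weights 3 and 5, and the fit on the 2 groups alone 1 and 1. The lower ones were Rps20 at its dim probe set, Rps26 and Rps28, proteins of the small subunit near the exit of the mRNA channel, with differences of -0.78 ± 0.2, -0.22 ± 0.062 and -0.24 ± 0.082 (limma, adjusted p = 0.00498, 0.0084 and 0.0371). Rps26 had control levels of 11.97, 12.03, 11.80, 12.04 and 12.01 and 4 d levels of 11.91, 11.74, 11.58, 11.71 and 11.79. The highest 4 d array lay above the lowest control array. The call of Rps28 was lost when control replicate 1, 2 or 5 or 4 d replicate 3, 4 or 5 was left out, and that of Rps26 in the fit on the 2 groups alone. At 6 d, 8 d and 16 d, 1 of the 32 was higher and 0 lower, and it was Rpl22l1 each time; 5.89%, 5.19% and 3.31% of all genes were higher and 2.64%, 2.81% and 3.35% lower.

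Of the 32, Rpl22l1 was the one member called at every time from 6 h to 16 d, and these calls held in every setting tried. Its start-site window above holds a run of 8 pyrimidines. It encodes a paralog of Rpl22 that can take its place in the large subunit, and in mice Rpl22 protein is known to bind the Rpl22l1 mRNA and hold down its level. Its control levels were 9.66, 9.95, 9.24, 10.13 and 9.83, and at 1 h they were 9.95, 10.00, 9.60, 9.93 and 10.07. At 6 h the arrays gave 10.45, 10.43, 10.65 and 10.47. The 6 h arrays all lay above control and 1 h, and the difference from control was 0.74 ± 0.13 (limma, adjusted p = 8.85e-05).

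At 12 h the Rpl22l1 levels were 10.66, 10.83, 11.05, 10.98 and 10.92, and at 1 d, the group with the highest mean, 11.16, 11.07, 10.99, 11.26 and 11.20. The 1 d arrays were 1.38 ± 0.12 above control, or 2.59-fold (limma, adjusted p = 4.74e-12), and 1.23 ± 0.098 above 1 h, or 2.34-fold (adjusted p = 6.03e-09). At 2 d and 4 d the differences from control were 1.18 and 1.04, and at 6 d and 8 d 0.75 and 0.92. The 16 d arrays held 10.58, 10.50, 10.73, 10.40 and 10.43. All 5 were above every control and 1 h array, 0.77 ± 0.12 above control, or 1.70-fold (limma, adjusted p = 2.17e-05). The group means of 6 h, 6 d and 16 d, 10.50, 10.51 and 10.53, differed by less than the SD within these groups.

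On all arrays Rpl22 itself was measured by another of its probe sets, at 10.52, 10.61, 10.12, 10.50 and 10.49 in control, 10.83, 10.75, 10.80, 10.80 and 10.78 at 1 d and 10.29, 10.46, 10.39, 10.08 and 10.22 at 16 d. The 1 d arrays were above all controls, by 0.35 ± 0.089 (limma, adjusted p = 0.00243), and the 16 d arrays overlapped with them. With each array centred on its median the 1 d difference was 0.22 and not called (limma, adjusted p = 0.0825), and, as given above, a dimmer Rpl22 probe set fell by 1.23 between 1 h and 1 d. The difference Rpl22l1 minus Rpl22 within an array was compared between groups; only its change has a meaning, since its value on 1 array sets different probe sets against each other. Against control it changed by 0.72 at 6 h, 1.04 at 12 h, 1.03 at 1 d, 0.89 at 2 d, 1.14 at 4 d, 0.84 at 6 d, 0.96 at 8 d and 0.93 at 16 d. With 5 against 5 arrays each of these had an exact two-sided permutation p of 0.00794, the smallest such groups allow, and an adjusted p of 0.0102 over the 9 comparisons; at 6 h, with 4 arrays, the exact p was 0.0159, again the smallest possible, and the adjusted p 0.0179. The change of 0.26 at 1 h had an exact permutation p of 0.0397 and lost the threshold when any 1 of 9 of its 10 arrays was left out. Against 1 h on the 25 arrays, with the brightest Rpl22 probe set, the changes were 0.82, 0.81, 0.70 and 0.68 at 12 h, 1 d, 2 d and 16 d, each with an exact permutation p of 0.00794 (adjusted over 4 comparisons, 0.00794). This test was chosen after the levels had been seen.

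**Figure D4:**
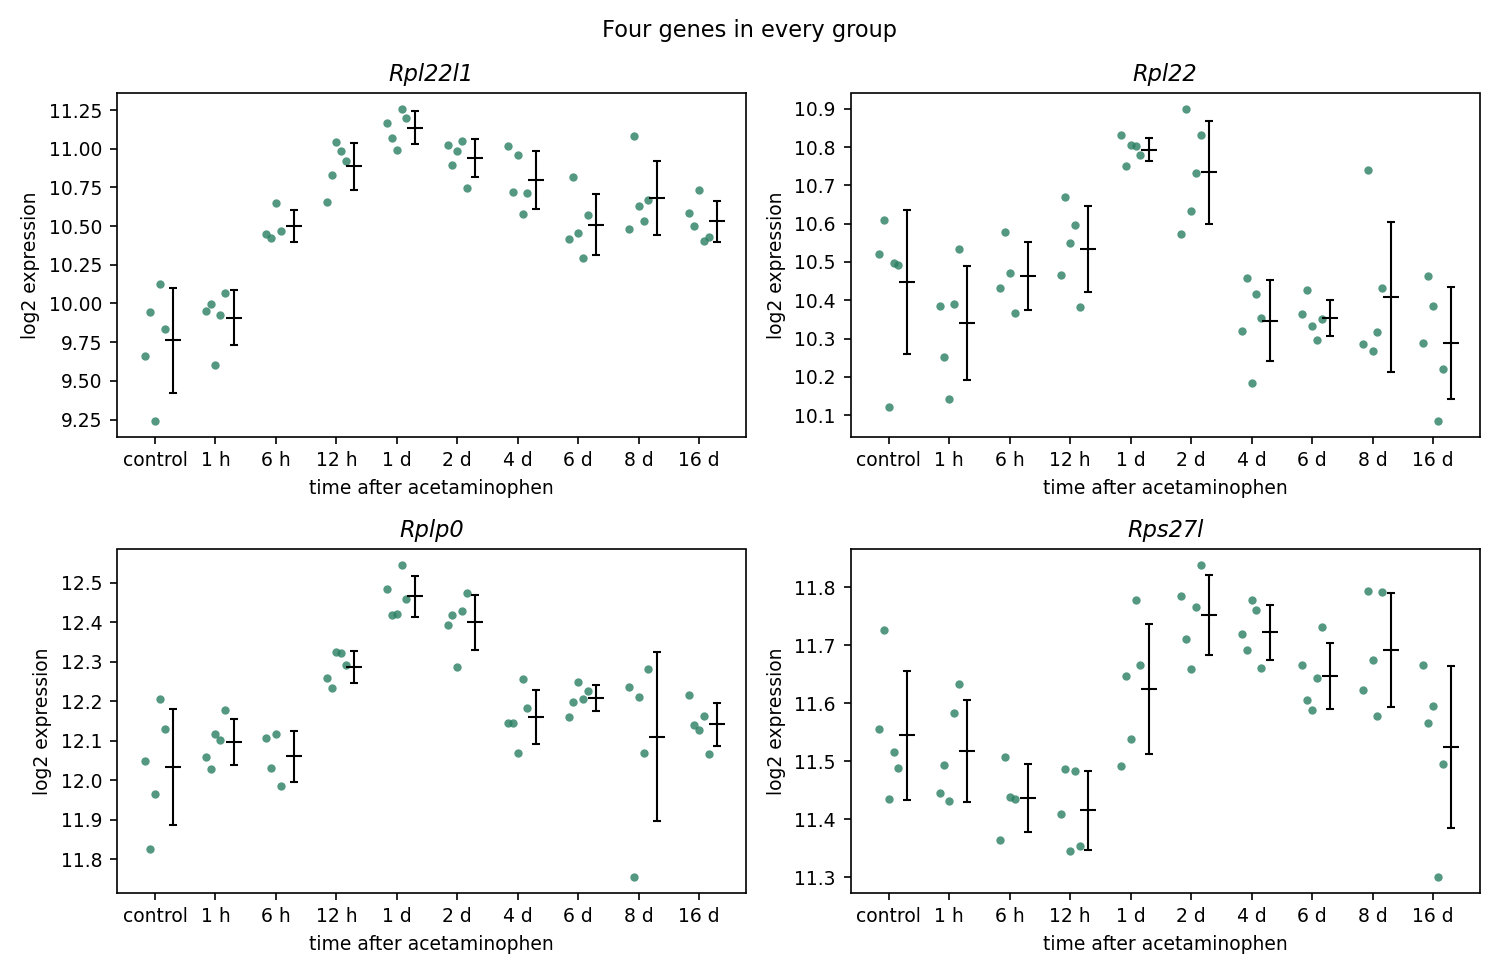
Log2 level on each array (points) with group mean and SD (bars) for Rpl22l1, Rpl22, Rplp0 and Rps27l in control and at 9 times after acetaminophen; each panel has its own vertical axis, which does not start at 0. Rpl22 and Rplp0 have their highest means at 1 d and 2 d, Rpl22l1 is above every control array from 6 h to 16 d, and Rps27l has its highest means from 2 d to 8 d.

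The other paralogs were not called at 1 d. Rps27l, a paralog of Rps27 that p53 switches on in human cells, had levels of 11.91, 11.78, 11.72, 11.85 and 11.98 at 1 h, 11.73, 11.78, 11.67, 11.75 and 11.62 at 12 h and 12.04, 12.02, 12.02, 12.03 and 12.12 at 2 d. Its 2 d arrays lay above those of 1 h and 12 h, while 12 h and 1 h overlapped. The differences from 1 h were -0.13 ± 0.073 at 12 h, 0.06 ± 0.073 at 1 d and 0.20 ± 0.073 at 2 d, the last of them called (limma, adjusted p = 0.215, 0.557 and 0.0435). That call was lost without 1 h replicate 2, 3 or 4 or without any 1 of the 2 d arrays, and in 13 of 21 settings in all. Against control, by another probe set, it was 0.21 ± 0.068 higher at 2 d (adjusted p = 0.016) and 0.18 ± 0.068 higher at 4 d, which missed the threshold (adjusted p = 0.0659). The 2 d call against control was lost without control replicate 3 or 2 d replicate 5, and with each array centred on its median the difference was -0.06. Rps27l shares much of its sequence with Rps27, so its probes may bind transcripts of both genes.

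Rpl7l1, a paralog of Rpl7, differed from 1 h by 0.33, 0.19 and 0.33 at 12 h, 1 d and 2 d, none of them called. Rpl3l, which replaces Rpl3 in muscle, and Rpl39l, a testis paralog of Rpl39, did not exceed a level of 4.11 on any of the 25 arrays, with differences of -0.16 and -0.24 at 1 d. Rps4l, a paralog of Rps4x, differed by 0.51 ± 0.28 at 1 d without a call. Rps19bp1, which besides Rps19 binds the deacetylase Sirt1, differed by 0.11 ± 0.12.

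Other genes of ribosome production and translation were measured from lists drawn from general knowledge. Of all genes, 8.29%, 11.6% and 14.8% were higher and 10.3%, 11.7% and 13.3% lower at 12 h, 1 d and 2 d than at 1 h. Of 52 ribosome biogenesis factors, which process ribosomal RNA and assemble the subunits in the nucleolus, 33 were higher at 12 h than at 1 h and 0 lower, with a median difference of 0.64. At 1 d 30 were higher and 0 lower (median 0.50), at 2 d 20 and 1 (median 0.32), and the median at 16 d was -0.07. Their largest differences at 12 h were those of Nop58, a core protein of box C/D snoRNPs, at 1.67, and Tsr1, which matures the small subunit, at 1.46. Eif6, which keeps the large subunit from joining too early, rose by 1.42 by 1 d, and Nhp2, a box H/ACA snoRNP protein, by 1.41; Nop58 and Nhp2 were also the largest at 2 d, at 1.06 and 1.01. Between 1 d and 2 d 8 biogenesis factors fell and none rose, where 2.09% of all genes were lower and 6.39% higher. No ribosomal protein gene was called there. The highest median was at 12 h for the biogenesis factors and at 1 d for the ribosomal protein genes, a difference that was not tested.

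Of 24 translation initiation factors, 15 were higher at 12 h and 14 at 1 d with 0 lower, and 8 were higher and 1 lower at 2 d. Of all genes, 8.29%, 11.6% and 14.8% were higher at these times and 10.3%, 11.7% and 13.3% lower. The cap-binding Eif4e rose by 1.44 at 12 h, and Eif4ebp1, which binds and blocks it, by 1.14 at 1 d. Eif1a, which takes part in start-codon scanning, rose by 1.25, 1.31 and 0.85 at 12 h, 1 d and 2 d, and the related Eif1ax by 0.68 at 2 d. Of 18 further genes whose mRNAs carry or are thought to carry a 5′TOP motif, 6 were higher and 1 lower at 12 h, 5 and 2 at 1 d, and 2 and 3 at 2 d. The 2 d counts were near the shares of all genes. Those that moved most at 1 d were lower, with differences of -0.67 for the helicase Eif4a2 and -0.64 for its cofactor Eif4b; at 12 h these were 1.11 for the snoRNA host Snhg1 and -0.50 for Eif4b. Fau, whose product is cut to release ribosomal protein Rps30, rose by 0.27 at 1 d, and the elongation factor Eef1b2 by 0.52; these, and Eef1a1 and Mtor below, are named for their function after their values were seen. Eef1a1, the most abundant elongation factor, differed by 0.13 without a call. Eif4a2 fell by 1.18 at 2 d, and another snoRNA host, Gas5, fell by 1.12. The 76 mitochondrial ribosomal protein genes, which build the separate ribosome of mitochondria, showed 2 higher and 3 lower at 12 h, 8 and 4 at 1 d and 8 and 1 at 2 d, with medians of -0.08, 0.04 and 0.08. Mrpl19 was higher by 0.69, 0.73 and 0.62 at these times, Mrpl14 differed by -0.70 at 12 h and -0.68 at 1 d, and Mrps25 was higher by 0.78 at 2 d. Their shares were near or below those of all genes in these comparisons.

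Of 16 genes of mTOR and Myc control, 4 were higher and 1 lower at 12 h, 4 and 1 at 1 d, and 1 and 1 at 2 d. Of all genes, 8.29%, 11.6% and 14.8% were higher at these times and 10.3%, 11.7% and 13.3% lower, so that the 2 d counts lay below these shares. Myc, a transcription factor that drives ribosome production, was higher by 3.48 ± 0.58 at 12 h, 2.78 ± 0.58 at 1 d and 1.86 ± 0.58 at 2 d (limma, adjusted p = 0.000147, 0.000951 and 0.0191). Mxi1, which competes with Myc for Max, differed by -0.61 at 12 h, Mnt, another such antagonist, by 0.49 at 1 d and Mycn, a paralog of Myc, by -0.28 at 2 d, all called. Mtor itself differed by -0.03 at 1 d without a call. Of 9 genes of nucleolar stress and p53, 2, 1 and 3 were higher at 12 h, 1 d and 2 d and 0 lower, the count at 1 d being near the share of all genes. The cell cycle inhibitor Cdkn1a was higher by 1.81, 2.21 and 1.31 at 12 h, 1 d and 2 d, Mdm2 by 1.08 at 12 h and the p53 target Phlda3 by 1.05 at 2 d.

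**Figure D5:**
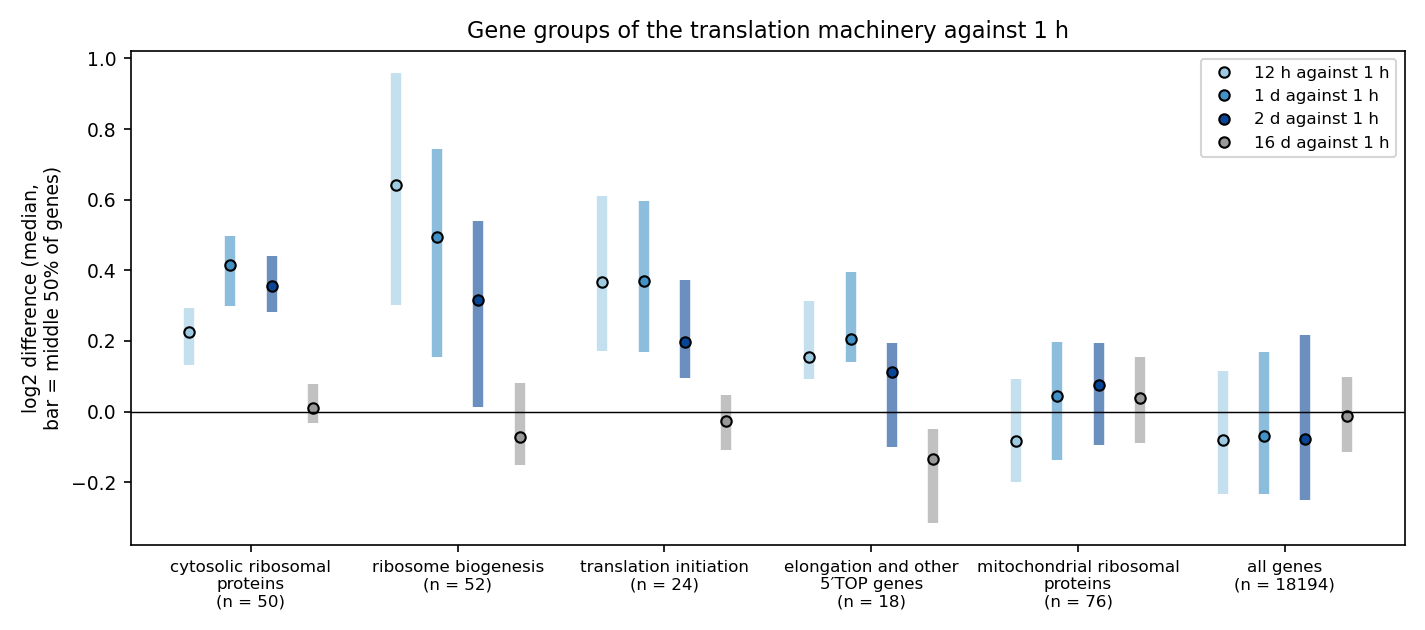
Median log2 difference from 1 h (points) and the middle 50% of genes (bars) for the ribosomal protein genes, 4 other gene groups and all 18194 genes, at 12 h, 1 d, 2 d and 16 d. The ribosomal protein genes have the narrowest bars, all above 0 at 12 h, 1 d and 2 d, and the biogenesis factors are highest at 12 h.

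The members differed in how near the shape of their time course lay to the median profile of the set. Their median profile, centred on each gene's mean over the 5 groups, was -0.20 at 1 h, 0.02 at 12 h, 0.21 at 1 d, 0.16 at 2 d and -0.19 at 16 d. Rpl7 and Rps26 were nearest to it, with a root mean square distance over the 5 group means of 0.01. Rpl12 and Rpl22l1 were farthest, with 0.47 and 0.29, followed by the dim Rpl39l, Rps16 and Rpl3l, with 0.26, 0.25 and 0.22. Since the profile is drawn from the members themselves, a short distance of a member is partly built in. Among 8524 other genes that were eligible because their group means spanned at least as much, those nearest to the profile were Rab35, a GTPase of endosome recycling, Rnaseh1, which removes RNA from RNA-DNA hybrids, and Atp6v1b2, a subunit of the vacuolar proton pump. Their distances were 0.02 each.

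Some markers of other cells moved at the same times. Of all genes, 11.6% were higher and 11.7% lower at 1 d than at 1 h. Of 10 hepatocyte markers, 1 was higher and 2 were lower in this comparison. At 1 d, 7 of 16 macrophage and monocyte markers were higher than at 1 h and 1 lower, and 3 of 6 neutrophil markers were higher. Of 9 stellate and myofibroblast markers 3 were higher, and of 9 endothelial markers 4 were higher and 2 lower. There was 1 of 5 cholangiocyte markers higher, and 1 of 11 lymphocyte markers was higher and 2 lower. In lists of this size, counts of 1 or 2 are near the shares of all genes. The largest changes at 1 d were those of Tat (-0.88) and Hnf4a (-0.50) in the hepatocyte list and Marco (2.54) and Cd68 (2.34) in the macrophage list. In the neutrophil list they were S100a8 (4.17) and S100a9 (3.70), and in the myofibroblast list Tagln (3.32) and Acta2 (2.34). The endothelial list had Lyve1 (2.41) and Cdh5 (1.81), the cholangiocyte list Sox9 (2.22) and the proliferation list Mcm6 (2.37) and Mcm5 (1.71). In the lymphocyte list they were Ptprc (1.16) and Cd3e (-0.37). Ptprc is expressed by leukocytes in general, macrophages and neutrophils included, so its rise does not mark lymphocytes. Summed levels of macrophage markers ranged from 11.67 to 12.29 at 1 h, 12.19 to 12.76 at 1 d, 12.81 to 13.26 at 2 d and 11.20 to 12.23 at 16 d. Those of stellate markers ranged from 10.56 to 11.21, 11.45 to 12.02, 12.59 to 13.20 and 10.52 to 11.15 in these groups, and those of proliferation markers from 10.14 to 10.72, 10.98 to 11.31, 11.66 to 13.34 and 10.17 to 10.85. The summed proliferation markers of every 1 d array already lay above those of every 1 h array. At 2 d 15 of 16 proliferation markers were higher than at 1 h, where 14.8% of all genes were. All 16 were higher than at 1 d, where 6.39% of all genes were, an interval in which no ribosomal protein gene was called. The part of these cells in the result was not tested.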

How the data were processed

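Liver RNA of 49 samples was hybridised to Affymetrix Mouse Genome 430 2.0 arrays, per the labels. The deposited values are log2 expression per probe set made by the authors with RMA, which corrects background, normalises quantiles between arrays and summarises probes; oligo 1.52.0 is named in the submitters' processing notes. Values are not counts, so precision is limited by the number of arrays. The files held all 45101 probe sets for 25 arrays and 8137 shared by all 49; the rest was not analysed here. The platform's probe annotation named the genes, and the probe set with the highest mean stood for a gene, among those with a single symbol.

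limma 3.58.1 (R 4.3.3; lmFit and eBayes) was fitted over all genes, with 1 model over the 5 complete groups and 1 over all 10 groups, without a replicate block. Genes were called at p under 0.05 after Benjamini-Hochberg adjustment across every gene in that model. Exact two-sided permutation tests used SciPy 1.17.1 (Python 3.11.15). The fit was tested on simulated data. Named were members with the largest changes, a panel of well-known members, all paralogs, the 2 called genes that moved most in each list (of the cell marker lists, printed for 1 d), and the 3 nearest profiles; the members and lists were chosen with earlier results of these data known. Replicate numbers recur across groups, and deviations of arrays with the same number correlated between -0.57 and 0.62 (27 of 50 pairs over 0.1), so the numbers were not taken as pairs. No arrays were identical. Alternatives were quantile normalization, centring on the array median, 2 groups alone, array weights, eBayes with trend and robust settings, other rules for probe sets and dim genes, leaving out arrays and a replicate block.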

Additional observations from a re-analysis of the deposited data

Results flagged for a closer look

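Of 180 gene and group combinations examined among the named members, 7 held an array whose gap to its nearest neighbour exceeded the critical value of Dixon's test; chance gives about 1 in 20. On the array of 1 h replicate 3, Rpl39l was the highest of its group at 4.11 (next 3.62) and Rps6 the lowest at 7.42 (next 7.98). On the array of 16 d replicate 4, Rpl7l1 was the lowest at 8.36 (next 8.77) and Rps6 the lowest at 7.45 (next 7.99). These 2 arrays are the ones with the narrower spread of values. On the array of 2 d replicate 5, Rps27l was the highest at 12.12 (next 12.04) and Rps4x the highest at 12.60 (next 12.49). On the array of 4 d replicate 1, Rpl41 was the highest at 12.39 (next 12.19).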

How the results depend on the processing

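No median larger than the spread between arrays changed sign under any setting. Quantile normalization gave 35 calls at 12 h against 1 h, 22 at 1 d against 12 h, 4 at 2 d against 1 d, and 3, 2 and 2 at 6 d, 8 d and 16 d against control, with medians of 0.53 at 1 d and 0.45 at 2 d against 1 h and 0.43 at 2 d against 16 d. Centring on the array median gave 0 at 1 d against 12 h, 5 at 2 d against 1 d (median -0.13), and 3, 11, 7 and 3 at 12 h, 2 d, 4 d and 6 d against control, with medians of 0.24 at 2 d against 1 h and against 16 d, and 0.21, 0.055 and -0.15 at 1 d, 2 d and 4 d against control. Fits on the 2 groups alone gave 10 calls at 12 h against 1 h, 0 at 1 d against 12 h, and 1, 17 and 2 at 12 h, 2 d and 4 d against control. Array weights gave 2 at 16 d against 1 h, 1 at 2 d against 1 d, and 5, 8, 4 and 2 at 12 h, 4 d, 6 d and 16 d against control. Trend and robust settings gave 9 at 1 d against 12 h, and leaving out the 3 narrow arrays gave 11 there, 1 at 2 d against 1 d and 5 at 12 h against control. With the replicate number as a block, 1 d against 12 h gave 2 calls, and no other count moved by over 1.5 times (24 at 12 h, 38 at 1 d and 36 at 2 d against 1 h). The same-number check found 8 of 25 arrays nearest to their own number on the complete arrays, and 25 of 49 over all arrays. Same-number pairs had a median correlation of 0.124 on the 25 arrays and 0.060 over all arrays. Other pairs had 0.0007 and -0.014. Whether the replicate numbers mark a batch is not given in the labels and was not tested. The other probe-set and filter choices moved no count by over 1.5 times. The share of all genes called under each setting is not given here. A count that moved therefore does not show a change particular to the members. Of 58 results for single named members, 39 kept sign and side of the threshold in all settings and 55 kept the sign; the others were Rpl22 at 1 d against 1 h (-0.12 as the mean of its probe sets), Rpl41 at 2 d against 1 h (-0.08 with unmarked probe sets) and Rps27l at 2 d against control (-0.06 after centring).

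Leaving out 1 array at a time gave 17 to 25 calls at 12 h, 36 to 38 at 1 d and 34 to 37 at 2 d against 1 h, 0 to 4 at 1 d against 12 h, 0 to 1 at 2 d against 1 d and 33 to 36 at 2 d against 16 d. Against control it gave 4 to 11 at 12 h, 22 to 24 at 1 d, 22 to 27 at 2 d and 3 to 6 at 4 d. Medians near 0 changed sign when 1 array was left out, at 16 d against 1 h (-0.0025 to 0.038) and at 6 h and 8 d against control (-0.037 to 0.039 and -0.024 to 0.04). The change of Rpl22l1 relative to Rpl22 at 1 h against control ranged from 0.21 to 0.34. Causes of these shifts were not tested. Signal limits what the 8 members under a level of 7 can show.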
